A study of Mus musculus with 8 samples.

Results

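The 10 genes described here encode receptors with which cells sense microbial molecules, together with an adaptor and a co-receptor: the Toll-like receptors Tlr1, Tlr2, Tlr3, Tlr4, Tlr5 and Tlr9, the NOD receptors Nod1 and Nod2, the adaptor Myd88 and the LPS co-receptor Cd14. They were chosen by name as a functional family, with earlier results of these data known. All 10 were found by Ensembl identifier among the 45706 genes of the count tables. RNA-Seq was performed on crypts, the pits of the epithelium in which its stem cells reside. They came from 4 wild-type C57BL/6N mice, 2 female and 2 male, and were taken from small intestine (SI) and from colon (COL). Each mouse gave 1 SI and 1 COL library, named SI1 to SI4 and COL1 to COL4 after the replicate numbers, and no animal was treated or carried a transgene. The age of the mice is not given in the sources used here. Crypts were released by EDTA chelation without sorting of cells. In the isolation protocol of the methods, which is written for organoid cultures, villi were scraped off the SI, and the colon was kept longer and in more EDTA.

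Toll-like receptors are membrane proteins with a leucine-rich ectodomain and a cytoplasmic TIR domain. TLR2 pairs with TLR1 or TLR6 to bind bacterial lipopeptides, TLR4 senses lipopolysaccharide (LPS) with the help of CD14 and Ly96, and TLR5 senses flagellin, whereas TLR3 and TLR9 read double-stranded RNA and CpG DNA in endosomes. NOD1 and NOD2 detect peptidoglycan fragments in the cytosol and signal through the kinase RIPK2. All of these Toll-like receptors except TLR3 signal through MyD88 and the IRAK kinases, TLR3 uses TICAM1 (TRIF), and the routes meet at the IKK kinases and NF-kB. In the intestine, these receptors stand at the border to the microbiota, and macrophages of the lamina propria as well as epithelial cells can express them.

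Expression is given as read counts and as CPM, the counts relative to a library total that was scaled by TMM, edgeR's correction for differences in RNA composition. Total counts ranged from 15969428 to 32908060 per library. The share of mitochondrial transcripts was low (4.83% to 7.35%) in the libraries COL3, COL4, SI1 and SI4 and high (22.7% to 50.8%) in COL1, COL2, SI2 and SI3, so each tissue had 2 libraries at either level, and results are also given within these levels. Epithelial markers were abundant in both tissues, with summed levels of 7834 to 12200 CPM in SI and 4164 to 12700 CPM in COL. SI1 was lowest in summed crypt stem cell markers (12.3 CPM, the other SI libraries having 188 to 290 CPM) and in summed Paneth cell markers (591 CPM against 1965 to 4100 CPM). The 7 genes of the family called different between the tissues were called without SI1 as well. The tissues were compared with edgeR's quasi-likelihood test. It covered 14491 genes that passed a filter on low counts, and Benjamini-Hochberg adjusted p-values over these genes were held to a threshold of 0.05. Fold changes are SI minus COL on the log2 scale, so negative values stand for higher expression in COL.

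The promoters of the receptors that were higher in COL and that have an entry in the RefSeq promoter table (GRCm38.p6) are shown first, because these 5 genes share the direction of their tissue difference. Printed are the bases that lie before the start of the gene in both RefSeq and GENCODE, 5′ to 3′ on the strand of the gene. Capitals mark matches to the motifs named after the sequences.
Tlr1, chr5:64933564-64933808, minus strand: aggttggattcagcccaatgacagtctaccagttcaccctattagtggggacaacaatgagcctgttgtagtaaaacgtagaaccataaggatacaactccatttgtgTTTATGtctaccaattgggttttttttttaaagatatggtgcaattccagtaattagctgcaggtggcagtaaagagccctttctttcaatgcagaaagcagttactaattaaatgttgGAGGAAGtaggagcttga
Tlr2, chr3:83841768-83841858, minus strand: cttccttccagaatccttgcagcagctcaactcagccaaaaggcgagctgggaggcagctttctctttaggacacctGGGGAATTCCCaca
Tlr5, chr1:182954538-182954787, plus strand: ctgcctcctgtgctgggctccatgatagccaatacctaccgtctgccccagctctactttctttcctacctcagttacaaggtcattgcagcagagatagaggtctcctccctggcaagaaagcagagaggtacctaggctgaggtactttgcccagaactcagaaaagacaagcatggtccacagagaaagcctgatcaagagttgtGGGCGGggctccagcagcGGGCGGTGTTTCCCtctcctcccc
Nod1, chr6:54972613-54972862, minus strand: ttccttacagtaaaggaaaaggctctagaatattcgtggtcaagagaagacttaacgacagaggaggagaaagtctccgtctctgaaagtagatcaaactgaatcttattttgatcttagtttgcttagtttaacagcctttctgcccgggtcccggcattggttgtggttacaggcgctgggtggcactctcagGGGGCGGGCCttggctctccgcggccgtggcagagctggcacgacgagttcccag
Nod2, chr8:88647097-88647314, plus strand: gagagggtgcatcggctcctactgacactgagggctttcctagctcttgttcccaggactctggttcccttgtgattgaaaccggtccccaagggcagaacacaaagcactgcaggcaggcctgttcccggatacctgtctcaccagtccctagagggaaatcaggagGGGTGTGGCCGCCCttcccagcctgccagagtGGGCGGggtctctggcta

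Short motifs were searched on both strands of the promoter windows, the 250 bases before the RefSeq start, after these sequences had been seen. A GC box (GGGCGG) matched in the first windows of Tlr2, Tlr5, Nod1 and Nod2, and such a match is present in 32.7% of all 32851 windows. A kappaB-like motif (GGG and CC with 5 unspecified bases between them) matched in the same 4 genes, against 45.8% of all windows. In Tlr2, 2 such matches overlapped between positions -173 and -163, counted back from the RefSeq start. In Tlr5, Nod1 and Nod2, a kappaB-like match overlapped a GC box. The Tlr1 window held neither and had the lowest GC content of the 5, with 39.2% against 51.6% to 62.8%. It matched an ETS-like motif (GAGGAAG, in 10.6% of windows) and a CDX-like motif (TTTATG, in 10.8%). An AP-1 motif (TGANTCA, in 6.7% of windows) and a TATA box (TATAAA, in 12.4%) were found in none of the 5 windows. These matches describe letters in the sequence and were not tested as binding sites. Tlr4 and Cd14 were not shown.

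Of the 10 genes, 9 passed the filter and 7 were called, all of them higher in COL: Tlr1, Tlr2, Tlr4, Tlr5, Nod1, Nod2 and Cd14. Of all genes tested, 28.4% were called, 12.9% higher in COL and 15.5% higher in SI. In each of the 7, every COL library lay above every SI library, as it did in 15.7% of all genes tested (17.8% had the reverse order), and the SI library was the lower one in 4 of 4 mice. Tlr3 and Myd88 were tested and not called, and Tlr9 had too few counts to be tested. The median log2 fold change of the 9 was -2.56, beside -0.09 over all genes tested. As the family was chosen with earlier results of these data known, these shares and medians describe it and do not test it. Tlr1, Tlr2, Tlr4 and Tlr5 lay below a log2 fold change of -3.5, as did 3.69% of all genes tested. This limit was set after the values were seen, so the share is a description and no test of the family. None of these 4 genes had at least 10 counts in every library. As crypts were sequenced in bulk, more cells of a type and more RNA per cell cannot be told apart.

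**Figure D1:**
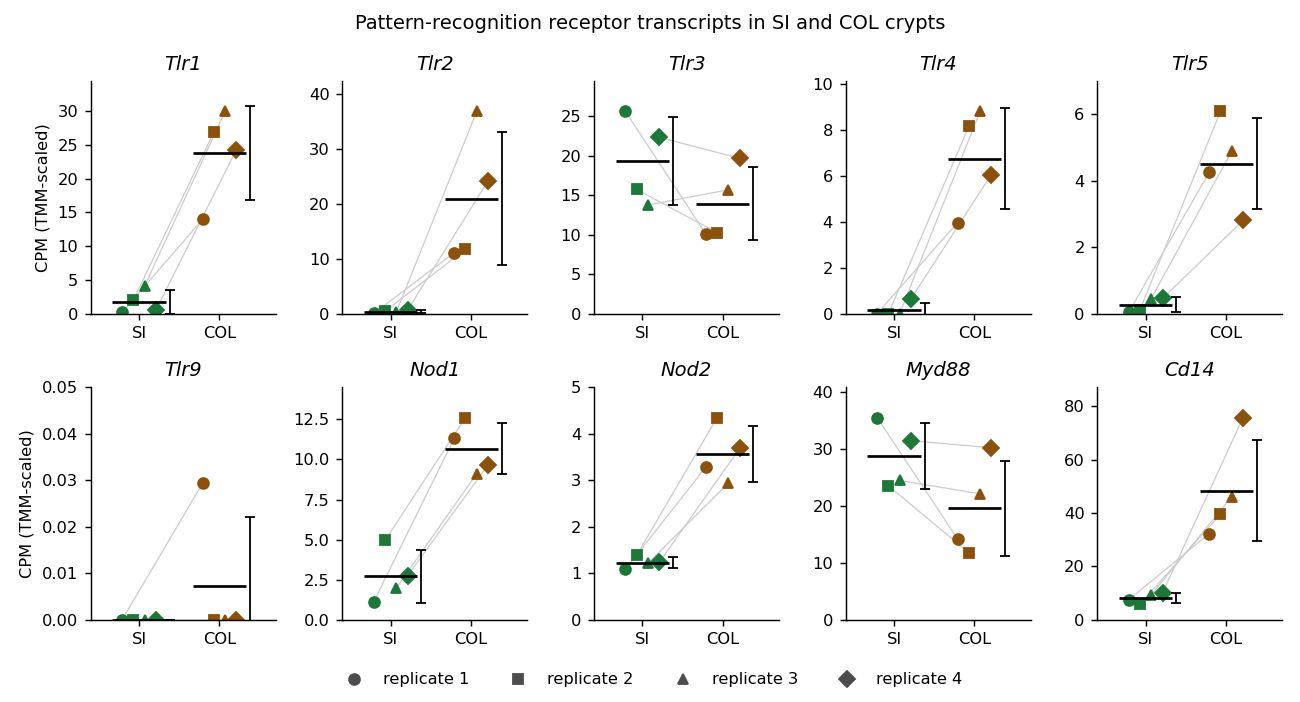
Level of each of the 10 genes in the 8 libraries, as TMM-scaled CPM on linear axes that start at 0, with 1 marker shape per replicate number, gray lines joining the libraries of 1 mouse, black lines for the mean of 4 libraries and bars for the SD. In 7 panels every COL point lies above every SI point. In the panels of Tlr3 and Myd88 the tissues overlap, and Tlr9 has a single count in COL1.

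Tlr2, the common partner in lipopeptide recognition (ENSMUSG00000027995, chr3:83836272-83841767, minus strand), was counted 1, 7, 5 and 14 times in SI1 to SI4 and 379, 189, 1380 and 1156 times in COL1 to COL4. This corresponds to 0.341 ± 0.253 CPM (SD, n = 4) in SI, and to between 11.1 and 36.9 CPM in COL. Every COL library was far above the SI libraries, and COL3 and COL4 were higher than COL1 and COL2. The fitted level was 61.2-fold higher in COL (log2 fold change -5.94, SE 0.68, edgeR adjusted p = 8.55e-05).

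Tlr1, which forms the receptor for triacylated lipopeptides with TLR2 (ENSMUSG00000044827, chr5:64924679-64933563, minus strand), had 5, 33, 81 and 12 counts in SI1 to SI4 and 476, 433, 1121 and 1160 counts in COL1 to COL4. The SI libraries spread widely, from 0.226 CPM in SI1 to 4.11 CPM in SI3, and stayed below the lowest COL library at 13.96 CPM. Tlr1 was 13.9-fold higher in COL (log2 fold change -3.80, SE 0.72, edgeR adjusted p = 0.00228). Without SI3 it was -4.70 on the log2 scale (adjusted p = 0.000955), and in limma-voom -4.52 (adjusted p = 0.000573). Of the 50-base stretches of its longest transcript, 15.26% also occur in Tlr6, the alternative partner of TLR2. Reads that lie wholly in these stretches cannot be told apart between both genes and may be lost from the counts. Tlr6 itself had 1 to 21 counts in SI and 1 to 30 counts in COL and was not called (log2 fold change -0.32, SE 0.94, edgeR adjusted p = 0.831). Per exonic base, Tlr1 exceeded Tlr6 in all 4 COL libraries, between 21.2-fold in COL1 and, on a single Tlr6 count, 482-fold in COL2. Per exonic base, the ratio of Tlr2 to Tlr1 was between 0.485 and 1.37 in the COL libraries and between 0.0685 and 1.3 in the SI libraries, where Tlr2 rested on 14 counts or fewer.

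Tlr4, the LPS receptor (ENSMUSG00000039005, chr4:66827584-66930284, plus strand), had 0 counts in SI1, SI2 and SI3, 14 counts in SI4 and 135, 131, 329 and 289 counts in COL1 to COL4. SI4 stood alone within the SI, and its level of 0.641 CPM was below the lowest COL library at 3.96 CPM. Tlr4 was 39.2-fold higher in COL (log2 fold change -5.29, SE 1.09, edgeR adjusted p = 0.00367). The log2 fold change was -6.31 with the donor mouse as block in edgeR (adjusted p = 0.00353) and -6.76 in limma-voom (adjusted p = 0.00039). Without SI4, the SI libraries are all at 0. The COL mean of 6.74 CPM was then at least 43.1-fold higher than the mean floor of 0.156 CPM, which 3 counts per library would give in SI1 to SI3.

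Cd14 (ENSMUSG00000051439, chr18:36725067-36726798, minus strand) encodes the protein that hands LPS to TLR4 and Ly96. It had 165, 98, 185 and 220 counts in SI1 to SI4 and 1101, 636, 1722 and 3617 counts in COL1 to COL4. COL4 was the highest library, with 75.7 CPM against 32.3 to 46.1 CPM in the other COL libraries and 5.92 to 10.1 CPM in the SI. The difference was 5.89-fold (log2 fold change -2.56, SE 0.33, edgeR adjusted p = 0.000181). Unlike Tlr4, Cd14 was well counted in every SI library. Ly96, the third part of the LPS receptor, had 76 to 170 counts in SI and 43 to 170 counts in COL. Its SI libraries lay above its COL libraries in CPM, but the difference missed the threshold (log2 fold change 0.76, SE 0.36, edgeR adjusted p = 0.14). Per exonic base, Cd14 exceeded Tlr4 between 15.6-fold and 40.1-fold in the COL libraries, and Ly96 exceeded Tlr4 between 1.79-fold and 5.04-fold. In SI1, SI2 and SI3, Cd14 and Ly96 were present with no count of Tlr4.

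Tlr5, the flagellin receptor (ENSMUSG00000079164, chr1:182954788-182976044, plus strand), had 1, 2, 9 and 10 counts in SI1 to SI4 and 145, 98, 183 and 134 counts in COL1 to COL4. Among the COL libraries it was highest in COL2, with 6.09 CPM, and lowest in COL4, with 2.81 CPM, an order unlike that of Cd14. No SI library exceeded 0.458 CPM. Tlr5 was 16.3-fold higher in COL (log2 fold change -4.03, SE 0.70, edgeR adjusted p = 0.00129).

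Of the endosomal receptors, none was called. Tlr3, the receptor for double-stranded RNA (ENSMUSG00000031639, chr8:45395665-45411080, minus strand), had 565, 260, 271 and 487 counts in SI1 to SI4 and 343, 165, 586 and 939 counts in COL1 to COL4. Its level was 19.3 ± 5.55 CPM in SI, against 13.9 ± 4.63 CPM in COL (SD, n = 4 each), the tissues overlapped, and SI was higher in 3 of 4 mice. The log2 fold change of 0.47 (SE 0.32) missed the threshold with an edgeR adjusted p of 0.301. Scaling by library size alone, which moves the median of all genes from -0.09 to -0.82, turned its sign to -0.31, or 0.51 above that median. Of its exonic bases, 7.32% overlap the antisense gene Gm45542, which was not analysed here. Tlr9, the CpG DNA receptor (ENSMUSG00000045322, chr9:106222598-106226883, plus strand), had 0 counts in 7 libraries and 1 count in COL1. A count of 0 still allows up to 3 counts in a library, so Tlr9 was not detectable at this depth in either tissue.

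The cytosolic receptors were also higher in COL. Nod1 (ENSMUSG00000038058, chr6:54923949-54972612, minus strand), the sensor of peptidoglycan fragments found mainly in Gram-negative bacteria, had 25, 82, 39 and 60 counts in SI1 to SI4 and 386, 203, 341 and 461 counts in COL1 to COL4. The COL libraries were close to each other, at 10.7 ± 1.60 CPM, and the SI libraries varied more around a lower level of 2.70 ± 1.64 CPM (SD, n = 4 each). The difference was 3.96-fold (log2 fold change -1.99, SE 0.44, edgeR adjusted p = 0.00593).

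Nod2, the muramyl dipeptide sensor known for its expression in Paneth cells (ENSMUSG00000055994, chr8:88647315-88688474, plus strand), had 24, 23, 24 and 27 counts in SI1 to SI4 and 112, 70, 110 and 176 counts in COL1 to COL4. The SI level was even across mice, at 1.23 ± 0.124 CPM, and COL reached 3.57 ± 0.605 CPM (SD, n = 4 each). The difference was 2.89-fold (log2 fold change -1.53, SE 0.42, edgeR adjusted p = 0.0175). Its call was lost without SI4 (adjusted p = 0.0505) and without COL4 (adjusted p = 0.0527), at log2 fold changes of -1.55 and -1.5. Summed Paneth cell markers, among them Lyz1, ranged from 591 to 4100 CPM in the same SI libraries and from 17.9 to 83.0 CPM in COL (exact two-sided permutation p = 0.0286, the smallest that 4 against 4 libraries allow). Of the 8 Paneth markers, 7 were called higher in SI and none higher in COL. The Defa genes among them have near-identical copies, so their counts are uncertain. Per exonic base, Nod1 exceeded Nod2 between 2.59-fold and 3.40-fold in COL and between 1.03-fold and 3.52-fold in SI.

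Myd88 (ENSMUSG00000032508, chr9:119335934-119341411, minus strand), the adaptor shared by these receptors other than TLR3, NOD1 and NOD2, was expressed in both tissues. It had 783, 389, 482 and 686 counts in SI1 to SI4 and 483, 189, 826 and 1441 counts in COL1 to COL4, or 28.7 ± 5.72 CPM in SI against 19.5 ± 8.35 CPM in COL (SD, n = 4 each). SI was higher in 4 of 4 mice, yet the tissues overlapped and the log2 fold change of 0.55 (SE 0.32) missed the threshold, with an edgeR adjusted p of 0.233. Under scaling by library size alone it was -0.24, which is 0.58 above the median gene. Of its exonic bases, 11.26% overlap Acaa1a on the opposite strand. Acaa1a, an enzyme of peroxisomal fatty acid oxidation, had 1600 to 2668 counts and a log2 fold change of 0.91 (edgeR adjusted p = 0.0741). Whether counting used the strand is not given in the sources used here, so reads of the overlap cannot be told apart between these genes.

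**Figure D2:**
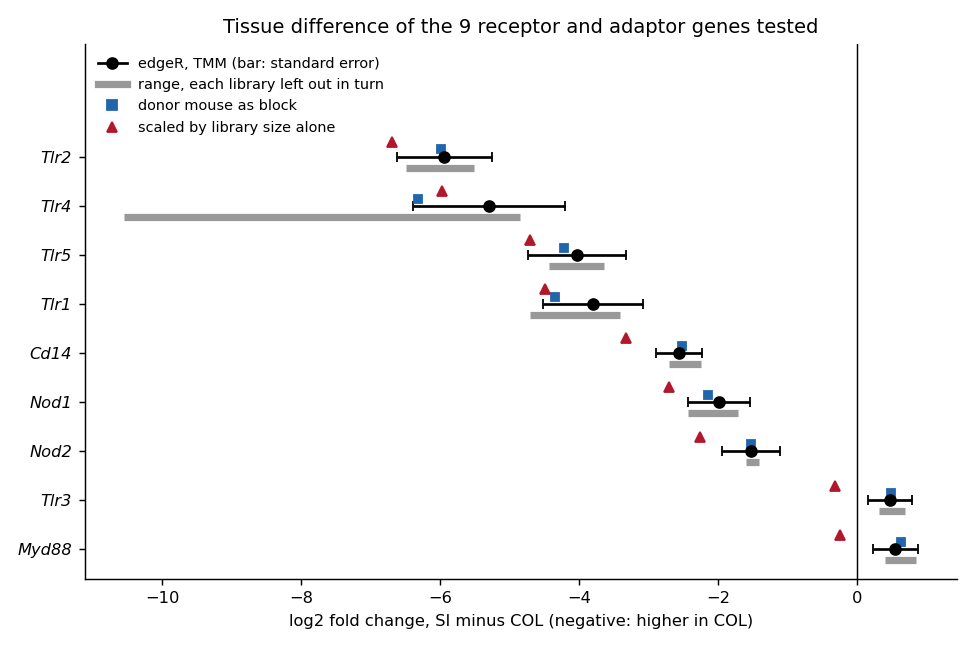
Log2 fold change, SI minus COL, of the 9 genes tested: black points with standard error bars are the edgeR estimates, gray bars the range when each library is left out in turn, blue squares the fit with the donor mouse as block and red triangles the fit scaled by library size alone. The 7 called genes stay left of 0 in each of these fits, and the red triangles of Tlr3 and Myd88 cross 0. The long gray bar of Tlr4 comes from leaving out SI4, after which the SI has no count, so its left end is not a measured bound.

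The differences were also compared within the levels of mitochondrial share, with 2 SI and 2 COL libraries each. Among the libraries of low share, the 7 genes were again called higher in COL by edgeR (18.3% of all genes tested there were), with log2 fold changes from -6.47 for Tlr2 and -6.12 for Tlr1 to -2.28 for Nod1 and -1.52 for Nod2. Among the libraries of high share, 5 were called (5.76% of all genes). There Nod1 (log2 fold change -1.87, adjusted p = 0.065) and Nod2 (-1.61, adjusted p = 0.189) kept their direction and missed the threshold. Tlr1 had a log2 fold change of -2.78 (SE 0.56) in the libraries of high share and of -6.12 (SE 0.46) in those of low share. The difference between these estimates was not tested.

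The tissue difference of the 9 genes was also set against the sex of the donors, by the interaction of tissue and sex with 2 libraries per tissue and sex. No gene of the 14491 tested had an adjusted p below 0.05 in edgeR or in limma-voom. At an unadjusted p below 0.05, edgeR gave 2 of the 9 (Tlr1 and Tlr4) and 5.25% of all genes, and limma-voom gave 0 of the 9. For Tlr1 the tissue difference was smaller in males by 2.39 on the log2 scale (SE 0.80, edgeR unadjusted p = 0.0128, adjusted p = 0.909; limma-voom unadjusted p = 0.0577). The males gave 33 and 81 counts of Tlr1 in SI and the females 5 and 12. In the SI, the male libraries are also those of high mitochondrial share, so sex and this share cannot be told apart there. The value for Tlr4 rests on 0 counts in both male SI libraries.

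Levels were compared between genes per kilobase of exon, as CPM per kb. In SI, Myd88 was highest with 11.1 CPM per kb, followed by Cd14 with 4.74 and Tlr3 with 3.71, whose ranges over the libraries overlapped. The means of all other genes of the family were at or below 0.532 CPM per kb there, the mean of Nod1. Single SI libraries reached 1.23 CPM per kb for Tlr1 and 0.976 for Nod1. Nod1, Tlr1 and Nod2, in this order, each overlapped with the next, as did Tlr2, Tlr5 and Tlr4 below them. In COL, Cd14 led with 27.9 CPM per kb and was above Myd88 in 4 of 4 libraries. Myd88 with 7.59, Tlr1 with 7.11 and Tlr2 with 6.97 CPM per kb were not separated, although Myd88 was far above both in every SI library. Tlr3 followed with 2.67, Nod1 with 2.10, Tlr4 with 1.21, Tlr5 with 0.942 and Nod2 with 0.711 CPM per kb. Of these neighbors, Nod1 and Tlr4 did not overlap, whereas Tlr2 with Tlr3, Tlr3 with Nod1, Tlr4 with Tlr5 and Tlr5 with Nod2 did.

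**Figure D3:**
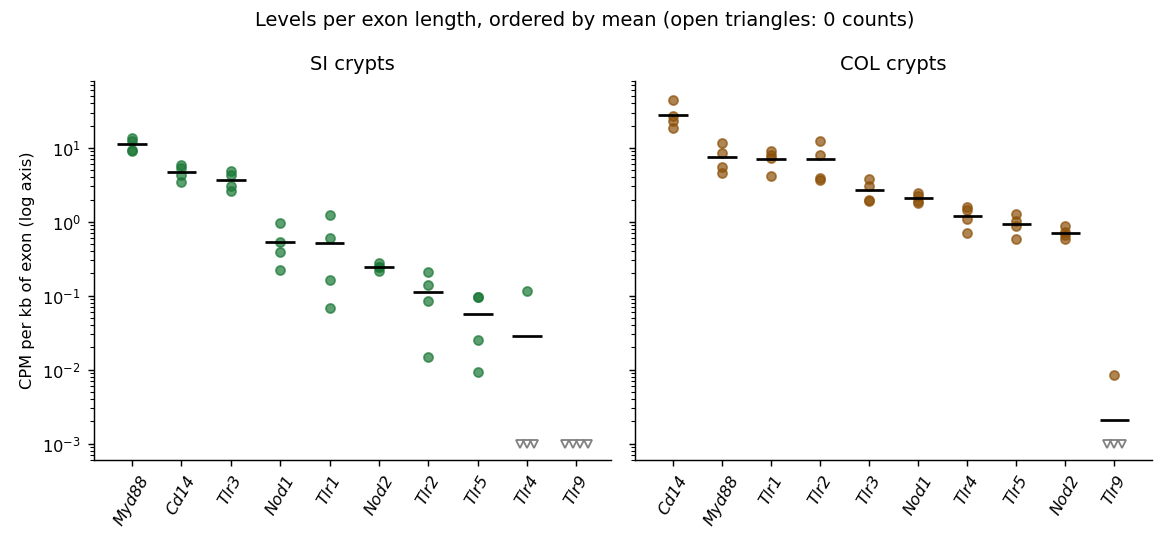
CPM per kb of exon in the 4 SI and the 4 COL libraries on a log axis, with genes ordered by their mean in each tissue, points for libraries, black lines for means and open triangles at the bottom for libraries with 0 counts. Myd88, Cd14 and Tlr3 are the highest genes in SI, and Tlr1 and Tlr2 stand beside Myd88 in COL.

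The other genes of these pathways were read from 7 lists with 69 genes, of which 52 passed the filter. In all, 12 were called higher in SI and 6 higher in COL, beside 15.5% and 12.9% of all genes, and their median log2 fold change was 0.37. Under scaling by library size alone, 6 were called higher in SI and 12 higher in COL. The median of the 52 was then 0.44 above the median of all genes, beside 0.46 with TMM. The called genes named here kept their sign in each alternative that tested them. With library-size scaling, 6 lost their call in SI: Irak4 (0.60, edgeR adjusted p = 0.161), Tab3 (0.70, adjusted p = 0.0948), Cyld (0.23, adjusted p = 0.446), Peli1 (0.24, adjusted p = 0.463), Cxcl10 (1.48, adjusted p = 0.139) and Birc3 (0.10, adjusted p = 0.768). Within the libraries of high mitochondrial share, Irak1, Tab3, Ripk2, Cyld, Peli1, Cxcl10, Birc3, Saa3, Nos2 and Icam1 were not called, and within those of low share Ripk2 and Cxcl10 were not. Without a filter on low counts, Cyld, Peli1, Icam1 and Birc3 were not called.

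None of the other Toll-like receptors was called: Tlr6 was tested, and Tlr7, Tlr8, Tlr11, Tlr12 and Tlr13 did not exceed 20 counts in any library. Of the co-receptors and trafficking proteins, 5 of 7 were tested and none was called. Among them, Unc93b1, which carries endosomal Toll-like receptors to their compartment, had a log2 fold change of -0.06 (SE 0.38). Of the TIR adaptors other than Myd88, Ticam1, which TLR3 uses, was higher in SI with 94.9 ± 27.9 CPM against 27.8 ± 9.15 CPM in COL (SD, n = 4 each; log2 fold change 1.77, SE 0.32, edgeR adjusted p = 0.00188). Tirap, which brings MyD88 to TLR2 and TLR4, had a log2 fold change of -0.53 (SE 0.28) and was not called.

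Of the 14 proximal kinases and ubiquitin ligases tested, 3 were higher in SI and 2 in COL. The IRAK kinases, which act behind MyD88, were split between the tissues. Irak2 (log2 fold change 2.30, edgeR adjusted p = 0.00244) and Irak4 (1.37, adjusted p = 0.00557) were higher in SI, as was Tab3, a partner of the kinase TAK1 (1.39, adjusted p = 0.00893). Irak1 was higher in COL, with 142 to 348 counts in SI and 459 to 1220 counts in COL (log2 fold change -1.16, SE 0.32, edgeR adjusted p = 0.0182). Ripk2, the kinase of NOD1 and NOD2, was higher in COL like both receptors, with 14, 22, 10 and 30 counts in SI1 to SI4 and 181, 74, 98 and 146 counts in COL1 to COL4 (log2 fold change -2.02, SE 0.52, edgeR adjusted p = 0.0133). Without COL1, Irak1 (-1.03, adjusted p = 0.0606) and Ripk2 (-1.82, adjusted p = 0.0504) missed the threshold.

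Further downstream, all 13 genes of the IKK, NF-kB and IRF list were tested and 2 were called, both higher in SI. These were Tbk1, a kinase of the TICAM1 route (log2 fold change 2.33, edgeR adjusted p = 0.00018), and Chuk, a subunit of the IKK complex (1.49, adjusted p = 0.000721). Of 7 genes tested from the list of negative regulators, 3 were higher in SI and 1 in COL. Tollip, an inhibitor of IRAK signaling (2.02, edgeR adjusted p = 0.00251), the deubiquitinase Cyld (0.95, adjusted p = 0.0106) and Peli1 (0.96, adjusted p = 0.0169) were higher in SI. Whether Peli1 restrains or promotes signaling in these cells was not tested. Peli1 missed the threshold without SI4 (0.93, adjusted p = 0.0641), without COL3 (0.87, adjusted p = 0.0521) and without COL4 (0.88, adjusted p = 0.0514). Irak3, the inactive kinase that restrains Toll-like receptor signaling, was higher in COL, with 1 to 4 counts in SI and 30 to 142 counts in COL (log2 fold change -4.06, SE 0.70, edgeR adjusted p = 0.00117).

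Of 10 NF-kB target genes tested, 3 were called in each direction. The acute-phase gene Saa1 had 9 to 71 counts in SI and 2740 to 12590 counts in COL (log2 fold change -7.51, SE 0.84, edgeR adjusted p = 7.34e-05). Its near-identical copy Saa2 makes the count uncertain, and without COL2 the value was -6.89 (adjusted p = 0.000101). Saa3 had 0 to 5 counts in SI and 13 to 119 counts in COL (-4.07, adjusted p = 0.0125; without SI3 -5.03, adjusted p = 0.0146). Nos2, the inducible nitric oxide synthase, was higher in SI, with 274 to 4015 counts in SI and 6 to 104 counts in COL (5.35, SE 0.98, edgeR adjusted p = 0.00182; without COL2 6.14, adjusted p = 0.00179).

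The other 3 calls among the targets were near the threshold. Icam1 was higher in COL (-1.74, edgeR adjusted p = 0.0489), and Cxcl10 (2.33, adjusted p = 0.0421) and Birc3 (0.80, adjusted p = 0.0413) were higher in SI. With the donor mouse as block, Icam1 (adjusted p = 0.0785) and Cxcl10 (adjusted p = 0.0519) were not called. Icam1 and Birc3 each lost their call without any 1 of the 8 libraries other than COL2, with adjusted p up to 0.194 and 0.108. Cxcl10 lost it without SI1, SI4, COL1, COL2 or COL3, with adjusted p up to 0.204. The log2 fold change of Cxcl10 was 1.41 without SI1, its highest library, and 3.16 without COL4. Il1b, Il6, Cxcl1, Cxcl2, Cxcl5 and Lcn2 had too few counts to be tested.

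**Figure D4:**
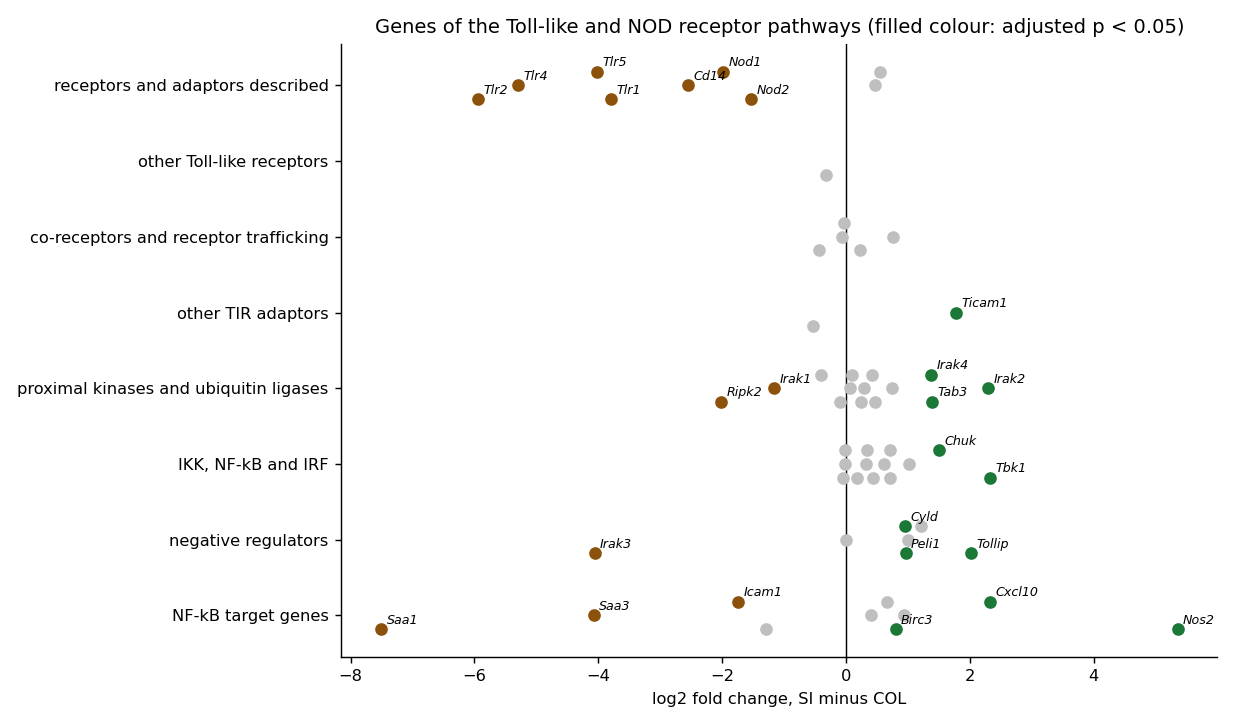
Log2 fold change, SI minus COL, of the genes tested, with 1 line for the receptors and adaptors described and 1 line for each of 7 pathway lists; green points are called higher in SI, brown points higher in COL and gray points not called, and points are spread vertically for legibility. The 7 called receptors lie on the COL side, whereas 12 of the 52 other pathway genes are called on the SI side and 6 on the COL side.

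Because macrophages express Cd14, Tlr2 and Tlr4, markers of other cells were read beside them. Of 12 macrophage markers, 7 were tested, 3 were called higher in SI and none was called higher in COL. The 3, named after their values were seen, were Itgam, Fcer1g and Tyrobp. They had the highest means of the list in SI, at 7.98, 6.88 and 3.37 CPM. Most of the summed level of the list in each SI library came from these 3 genes. C1qa (log2 fold change 0.14), C1qb (1.04) and Lyz2 (0.00) were tested and not called. The summed level of the 12 ranged from 16.9 to 35.0 CPM in SI and from 5.02 to 19.7 CPM in COL (exact two-sided permutation p = 0.0571). The defining marker Csf1r was at 0 in COL1 and had 4, 11 and 44 counts in COL2 to COL4. Adgre1, named after its values were seen, was at 0 in COL1, COL2 and SI3. In COL1, where Cd14 had 1101 counts and Tlr2 379 counts, 3 of the 12 macrophage markers were at 0 and the other 9 had counts, among them Lyz2 with 56, Cd68 with 44 and Itgam with 20 counts. The part of macrophages in the differences was not tested. Cd68 had 15 to 41 counts in SI and 37 to 128 counts in COL and was not called (log2 fold change -0.76, edgeR adjusted p = 0.339).

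Summed pan-leukocyte, T and B cell markers ranged from 45.3 to 111 CPM in SI and from 11.9 to 41.0 CPM in COL (exact two-sided permutation p = 0.0286, the smallest possible without pairing by mouse). Of the 9, 7 were tested, 2 were called higher in SI and none higher in COL. Ptprc, the pan-leukocyte marker, had 222 to 520 counts in SI and 130 to 571 counts in COL (log2 fold change 0.96, edgeR adjusted p = 0.0516). Stromal and endothelial markers had summed levels of 3.62 to 14.3 CPM in SI and 5.603 to 17.1 CPM in COL (exact two-sided permutation p = 0.171). Of these 9, 6 were tested and 1 was called, Pecam1, an endothelial and leukocyte gene named after its values were seen, which was higher in COL with 42 to 106 counts against 2 to 19 (log2 fold change -2.69, edgeR adjusted p = 0.0248). The 6 tested markers all had negative log2 fold changes, from -2.69 for Pecam1 to -0.46 for Vim, with a median of -1.14. The endothelial markers Cdh5 and Kdr had at most 6 and 7 counts in a COL library, and at most 6 and 36 in an SI library. The part of these cells in the differences of Tlr4 and the other receptors was not tested.

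Marker transcripts of cells within the epithelium also differed between the libraries. Of 4 crypt stem cell markers, 1 was called, Olfm4, named after its values were seen. It was higher in SI, with a mean of 151 CPM against 0.930 CPM in COL (log2 fold change 7.24, edgeR adjusted p = 0.00354). The summed level of the 4 ranged from 12.3 to 290 CPM in SI and from 27.0 to 34.6 CPM in COL (exact two-sided permutation p = 0.143). Most of the SI sums came from Olfm4, with 9.74 CPM in SI1 and 254 CPM in SI3. Smoc2 had a log2 fold change of -0.13 and was not called. Lgr5 and Ascl2, named after their values were seen, lay higher in every COL library than in any SI library and were not called (edgeR adjusted p = 0.293 and 0.238). Ascl2 was at 0 in SI1, the library that was also lowest in Tlr1, Tlr2, Tlr5 and Nod1. Among 6 epithelial markers, Vil1, an enterocyte brush-border gene, was higher in SI (log2 fold change 3.25, edgeR adjusted p = 0.00038). Krt18 was higher in COL (-1.40, edgeR adjusted p = 0.00949), and the others were not called. Vil1 and Krt18 were also named after their values were seen. The part of the cell makeup of the crypts in the receptor differences was not tested.

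**Figure D5:**
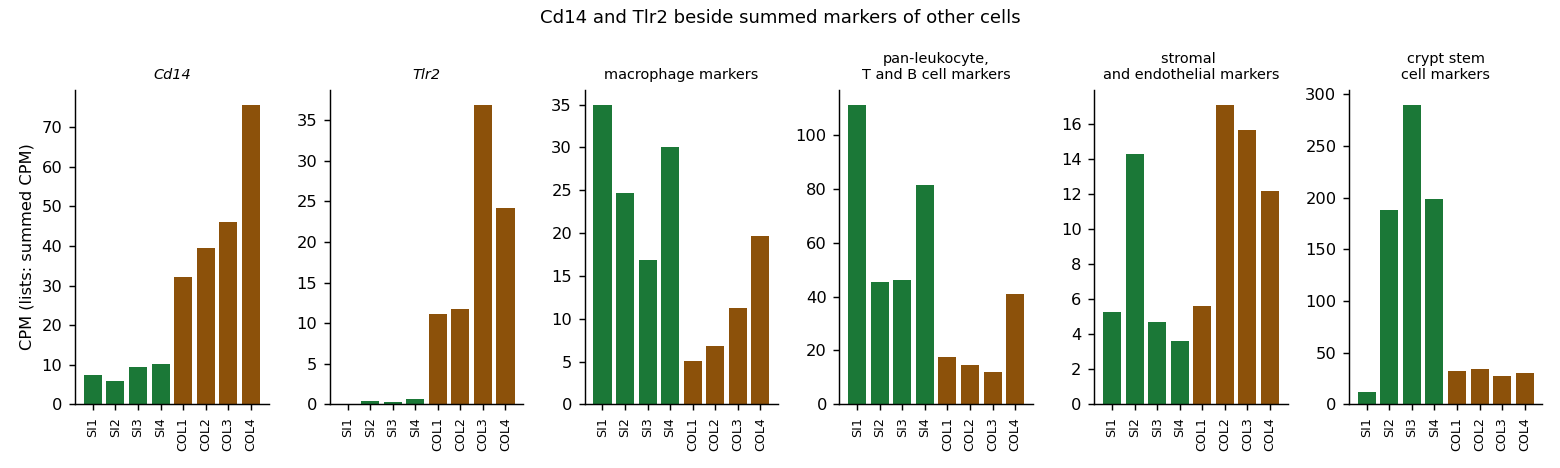
Bars give Cd14 and Tlr2 in CPM, and the summed CPM of 4 marker lists, in each SI library (green) and each COL library (brown), with axes that start at 0. Cd14 and Tlr2 are highest in COL. Summed macrophage markers range from 16.9 to 35.0 CPM in SI and from 5.02 to 19.7 CPM in COL.

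For each of the 9 genes tested, the 3 genes with the most similar profile over the 8 libraries were taken from 9365 genes with a mean log2 CPM of at least 2, by Pearson correlation of log2 CPM. As the 8 libraries share the tissue difference, these values describe likeness and carry no test. Tlr2 was most like Car12 (r = 0.998), Tst (0.996) and P2ry6 (0.995). Genes most like Nod2 included Capn8 (0.996) and Hsd3b2 (0.988), and Nod1 was most like Nbeal2 (0.995), Bcor (0.994) and Cgnl1 (0.990). Tlr1 was closest to Itga5 (0.989), Fgf1 (0.988) and Pla2g4a (0.986), Tlr4 to Plbd2 (0.983), Hao2 (0.981) and Mrps6 (0.979), and Tlr5 to Slc15a4 (0.988), Sike1 (0.986) and Shisa2 (0.979). Cd14 was closest to Ttr (0.985), Csad (0.984) and Akr1b8 (0.984). Tlr3 was closest to Wdr83 (0.993), Gpkow (0.984) and Nubp2 (0.980), and Myd88 to Smu1 (0.988), Lgals3bp (0.983) and Cops8 (0.982).

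Within the tissues, the genes differed in which libraries were high. As deviations of log2 CPM from the tissue means over the 8 libraries, Tlr3 and Myd88 went together (r = 0.934), as did Myd88 and Cd14 (0.729) and Tlr3 and Cd14 (0.620), with COL4 the highest COL library in each of these genes. Nod1 and Nod2 had an r of 0.634, whereas Tlr1 and Tlr3 went apart (-0.535). These correlations describe libraries that also share their depth and mitochondrial share.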

How the data were processed

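RNA-Seq counts of 4 SI and 4 COL crypt libraries were analysed. Per the labels and the methods, reads were trimmed by the authors (Trimmomatic 0.36) and mapped to mm10 with STAR 2.5.2b, which also counted them per gene; the labels list mm9 beside mm10. They deposited raw counts as whole numbers for 45706 Ensembl genes, with 1 column per library. Annotation release and strand use are not given in the sources used here. Symbols, coordinates and exon lengths came from GENCODE vM21 (GRCm38), which lacks 563 of these genes.

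Tests used edgeR 4.0.16 in R 4.3.3 (quasi-likelihood test with TMM and filterByExpr, which asks for about 10 counts at median depth in 4 or more libraries) without a donor term, as the methods name none. The methods name limma for this comparison, so limma-voom (limma 3.58.1) was an alternative, as were DESeq2 1.42.0, library-size scaling, other filters, a donor block, mitochondrial strata and leaving out each library. CPM relate a count to the TMM-scaled sum of the kept genes. Log2 CPM used a prior count of 2. The fits were tested on simulated data. The donor numbers that the labels give pair the tissues by mouse. Same-mouse deviations correlated between -0.24 and 0.39 and different-mouse deviations between -0.41 and 0.27, so the ranges overlapped. No library repeats another (chi-square per gene of 92.28 or more). With 4 mice, the spread between animals limits precision, and counting error adds to it for genes of few counts; counts of 0 allow up to 3 and cover counting error only.

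Members and gene lists were chosen with earlier results of these data known. All 10 genes of the family, pathway genes past the threshold, Ptprc, Cd68, Csf1r and Lyz1, and the 3 genes most alike are named by rule (1 of those for Nod2 is not reported here); pathway genes below the threshold were named to place a member.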

Additional observations from a re-analysis of the deposited data

Results flagged for a closer look

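3 values stood apart within their tissue: the gap to the nearest of the other 3 libraries, as a share of the whole range of the 4, exceeded Dixon's critical value, which chance alone exceeds in about 1 of 20 groups. In all, 32 groups were checked. Tlr4 in the SI had a share of 1.0, because SI4 had 0.641 CPM (14 counts) and the other SI libraries had none. Tlr9 in the COL also had a share of 1.0, from a single count (0.0293 CPM) in COL1. The summed stromal and endothelial markers in the SI had a share of 0.846. They reached 14.3 CPM in SI2 against 3.62 to 5.25 CPM in the other SI libraries.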

How the results depend on the processing

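Of the 7 calls among the receptors and adaptors, all 7 were made with DESeq2, limma-voom, library-size scaling, mitochondrial genes removed and the donor mouse as replicate block, in edgeR (7 members, 17 pathway genes and 4072 genes in all) and in limma-voom. The block changed no call of the family. Without a filter, 6 were called, since Nod2 (log2 fold change -1.58, adjusted p = 0.061) was lost. Leaving out each library in turn gave 6 to 7 members, 13 to 21 pathway genes and 3167 to 4480 genes, of between 14901 and 15536 genes tested. With at least 10 counts in every library, 5 members could be tested and 3 were called, and 11 pathway genes were called; fewer genes were tested by construction. Within the libraries of high mitochondrial share, 9 pathway genes and 2264 genes were called, and within those of low share, with as many libraries, 23 pathway genes and 5530 genes (18 and 4116 from all 8 libraries); the cause was not tested. Tlr3 (-0.31) and Myd88 (-0.24) reversed their sign with library-size scaling, under which the median gene lies at -0.82. The interaction of tissue and sex gave 0 calls in each of 4 alternatives. Precision in the SI is limited by counts of 14 or fewer per library for Tlr2, Tlr4 and Tlr5.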
